A study of Mus musculus with 2 samples.

Results

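Ngp, Camp, Ltf, S100a8, S100a9, Lcn2, Ly6g, Mmp8 and Mmp9, which are genes of the secondary granules and of late neutrophils, were chosen by symbol and described as 9 of the 27998 genes counted in each library. The cells came from the liver of 1 wild-type C57BL/6 mouse embryo, C57BL/6J in the methods, at E12.5 of gestation and were sorted to leave out debris, dead cells and doublets. Droplet-based single-cell RNA sequencing gave 2 libraries of this liver, which the methods call technical replicates, while the design text of the series speaks of separate suspensions. The deposited table named the cells of the granulocytic cluster G beside HSPCs (hematopoietic stem and progenitor cells), the erythroid clusters Ery, Eryb and EryP, Mk (megakaryocytes), Mo/KC (monocytes and Kupffer cells), Hepa (hepatoblasts) and ECs (endothelial cells). No group was treated or mutated, so every value below describes unperturbed fetal liver.

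A neutrophil fills its granules in turn as it matures: the promyelocyte makes the enzymes of the primary granules, the myelocyte and metamyelocyte make the contents of the secondary granules, and the gelatinase granules follow. The fetal liver is a main site of blood formation at this stage of gestation, and its granulocytes hold both early and maturing forms. In the granule order, Ltf (lactoferrin, an iron-binding protein), Camp (the precursor of the cathelicidin antimicrobial peptide), Lcn2 (lipocalin 2, which binds bacterial siderophores), Ngp (neutrophilic granule protein, a relative of the cathelicidins) and Mmp8 (neutrophil collagenase) belong to the secondary granules, and Mmp9 (gelatinase B) to the gelatinase granules. S100a8 and S100a9 are not granule proteins: they are calcium-binding proteins of the cytosol that pair as calprotectin. Ly6g is a surface protein anchored to the membrane, and the epitope by which mouse neutrophils are usually sorted.

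The 9 genes lie on 4 chromosomes of the GRCm38 build. Chromosome 9 carries Camp (chr9:109847379-109849617, minus strand), Ngp (chr9:110419747-110423012, plus strand), Ltf (chr9:111019271-111042767, plus strand) and, farther off, Mmp8 (chr9:7558456-7568485, plus strand). S100a8 (chr3:90668978-90670035, plus strand) and S100a9 (chr3:90692632-90695721, minus strand) were 22.6 kb apart with 0 coding genes between them. Lcn2 (chr2:32384633-32388252, minus strand) and Mmp9 (chr2:164940780-164955850, plus strand) share chromosome 2, and Ly6g lies at chr15:75155240-75159126 on the plus strand. None of the 9 overlapped another annotated gene.

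The stretches just before the genes are shown for the members whose order of appearance is described further on, since C/EBP factors are known to drive granule genes. RefSeq (GRCm38.p6) gave a promoter for 8 of the 9 members, all but Mmp9, and the bases inside the gene as GENCODE annotates it were trimmed off the stretches shown. Each line reads 5′ to 3′ on the strand of the gene, and capitals mark the C/EBP-like letters TTNNGNAA on either strand. The stretches are chr3:90695722-90695971 for S100a9, chr3:90668821-90668977 for S100a8, chr9:109849618-109849706 for Camp, chr9:110419558-110419746 for Ngp and chr9:111019042-111019270 for Ltf.
S100a9: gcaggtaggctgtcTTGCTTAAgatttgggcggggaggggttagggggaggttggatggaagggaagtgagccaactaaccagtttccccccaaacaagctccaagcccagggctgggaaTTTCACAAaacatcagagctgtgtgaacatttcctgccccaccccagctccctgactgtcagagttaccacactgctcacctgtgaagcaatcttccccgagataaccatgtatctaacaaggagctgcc
S100a8: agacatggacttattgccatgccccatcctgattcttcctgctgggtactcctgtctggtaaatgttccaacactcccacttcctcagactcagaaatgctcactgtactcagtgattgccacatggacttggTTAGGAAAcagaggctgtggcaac
Camp: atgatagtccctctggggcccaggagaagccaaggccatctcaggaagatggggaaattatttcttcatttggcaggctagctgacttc
Ngp: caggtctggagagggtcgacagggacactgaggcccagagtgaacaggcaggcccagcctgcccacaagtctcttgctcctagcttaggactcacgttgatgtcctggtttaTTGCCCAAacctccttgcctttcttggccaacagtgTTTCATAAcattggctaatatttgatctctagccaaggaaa
Ltf: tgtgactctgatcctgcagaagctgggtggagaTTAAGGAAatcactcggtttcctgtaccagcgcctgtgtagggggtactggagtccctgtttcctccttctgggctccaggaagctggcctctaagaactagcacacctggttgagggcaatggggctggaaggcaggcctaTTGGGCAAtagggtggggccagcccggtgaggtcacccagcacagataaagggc
In the untrimmed 250 bases before the RefSeq start, 7 of 8 members had the C/EBP-like letters, all but Camp, against 36.8% of 32851 mouse promoters of that length. The PU.1-like letters GAGGAA were in 5 of 8 members against 23.3% of promoters, and the TATA-like letters TATAAA in 2 of 8, S100a8 and Ly6g, against 12.4%. These windows lie partly inside the annotated gene, by 161 bases for Camp and 93 for S100a8, whose TATAAA lies 30 bases before the start in the trimmed part, and wholly for Lcn2. Of the 7 members with bases outside the gene, 6 had the C/EBP-like letters there. No match overlapped a match to another of these motifs. Such a short match describes the sequence only, and the lack of one in Camp says only that these letters are not in this window.

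Library 1 held 5480 kept cells with 51969226 UMIs and library 2 held 5057 kept cells with 62738015 UMIs. A UMI is a molecular tag that counts one captured mRNA molecule. The libraries stood apart in where cell calling stopped: the shallowest kept cell had 504 UMIs in library 1 and 4387 in library 2, and this difference moved with the level of several members. The libraries shared 31 barcodes of kept cells and 0 barcodes of G cells. Cluster G held 157 cells with a median of 10550.0 UMIs in library 1 and 130 cells with a median of 14769 UMIs in library 2. Ly6g, by which the study names the cluster, was above the empty-droplet level in G alone of all cell types. The primary granule genes Mpo, Elane, Prtn3 and Ctsg were also above that level in G in both libraries. Of these, Mpo (740 and 725 CPM) and Prtn3 (531 and 588 CPM) were above it in HSPCs too. Mpo, Elane and Prtn3 were above it in Mo/KC as well, where the primary granule genes summed to 1907 and 1448 CPM. Markers of other cells were also looked for in G: 3 of 5 monocyte markers (317 and 313 CPM summed over the 5 in libraries 1 and 2), 3 of 5 mast cell and basophil markers (229 and 169 CPM) and 1 of 8 macrophage markers, Adgre1, passed that level in both libraries, and 0 of 4 adult globins did. The deposited cell types were made from these same genes and cells, so the levels of the members in G against other types are a description and carry no test.

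All 9 genes were expressed in G, where together they made 63541 CPM (UMIs of the gene per 1000000 UMIs of the cells) in library 1 and 50800.5 in library 2. S100a9 had 19829 CPM in library 1 and 19243 in library 2, and S100a8 had 17799 and 13305 CPM. Ngp had 10530.5 CPM (95% Poisson interval 10385 to 10678) in library 1 and 6789.8 (6673 to 6908) in library 2. Transcripts of secondary granule proteins thus sat beside those of the calprotectin pair in this cluster. Camp had 8405 and 7341 CPM, Lcn2 3609.9 and 2552 CPM, and Ltf 2928 and 1447 CPM in libraries 1 and 2. Mmp8 had 252 CPM (230 to 275) in library 1 and 64.9 (53.9 to 77.4) in library 2. Mmp9 had 114 CPM (99.5 to 130) and 31.1 (23.7 to 40.1), and Ly6g had 74.5 CPM (62.7 to 87.9) and 26.4 (19.6 to 34.8). The collagenase, the gelatinase and the surface protein were thus read from few molecules, with 123, 59 and 50 UMIs of Mmp8, Mmp9 and Ly6g over the G cells of library 2. Intervals cover counting error only and not the spread between embryos, for which there is 1 liver. The genes were not ranked by level.

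**Figure D1:**
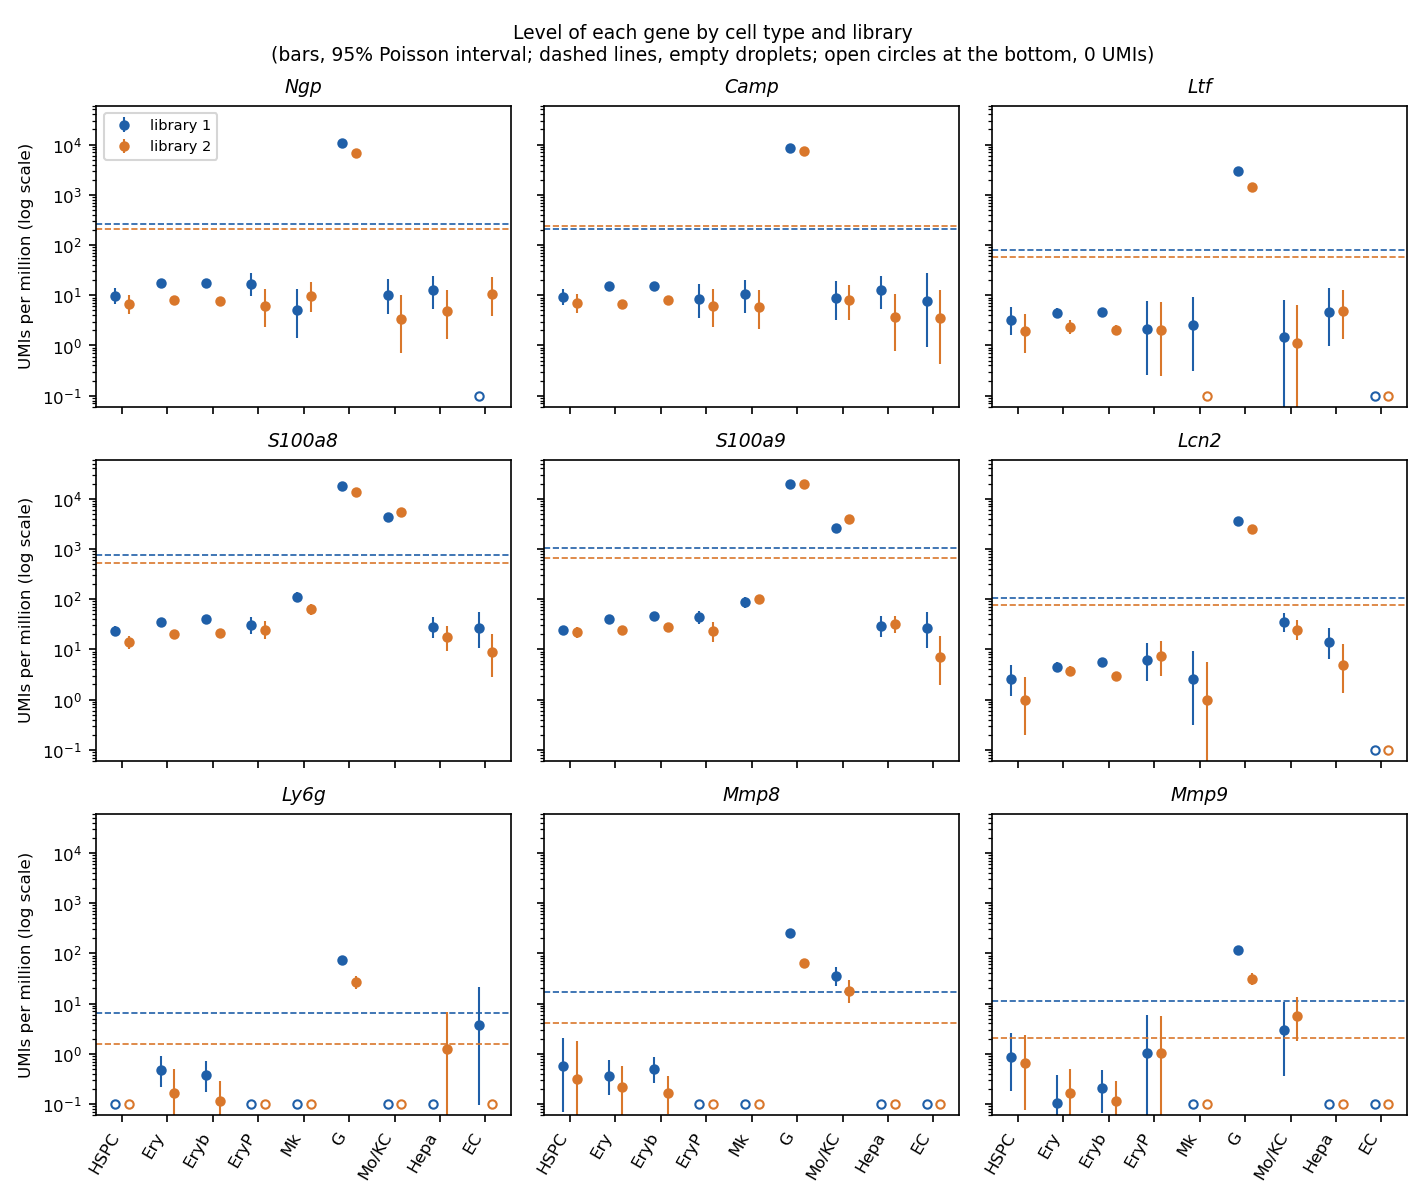
Level of each of the 9 genes by deposited cell type in CPM on a log axis, for library 1 and library 2, with the level in empty droplets beside. Every gene was above the empty-droplet level in G in both libraries, and in Mo/KC S100a8, S100a9 and Mmp8 were the genes whose interval lay above it.

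HSPCs, which stand before G in the myeloid lineage, held almost none of these transcripts. Ngp had 34 UMIs (9.86 CPM) in the HSPCs of library 1 and 21 UMIs (6.72 CPM) in library 2, and Lcn2 had 9 and 3 UMIs. The Ngp levels were 3.70% and 3.16% of those in empty droplets, against 6.47% and 3.67% in Eryb. For Lcn2 they were 2.43% and 1.24%, against 5.10% and 3.85% in Eryb. The CPM of both genes in HSPCs was thus not above that which erythroblasts held as background, and the ratios that follow are of measured levels. HSPCs were deeper, with medians of 16053 and 14956 UMIs against 5613 and 8982.5 in Eryb, and UMIs per cell were not compared. The level in G was 1068 times that in HSPCs for Ngp in library 1 (764 to 1543, counting error) and 1010 times in library 2 (661 to 1633). S100a9 gave 824 and 884 times, and Camp gave 906 and 1043 times. Ly6g had 0 UMIs in the HSPCs of both libraries, which allows a level of up to 0.870 CPM in the first and 0.960 CPM in the second. Set against that limit of 3 UMIs per library, Ly6g was at least 85.7-fold higher in G of library 1 and at least 27.5-fold higher in library 2. Mmp8 rested on 2 and 1 UMIs in HSPCs, with ratios of 434 (119 to 3594) and 203 (35.7 to 8071). Across all 7187 genes with enough counts, 125 (1.74%) were at least 10-fold higher in G than in HSPCs in both libraries, and so were 9 of the 9 members. The cluster was defined on these genes, and nothing more is read from that count.

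Outside G and Mo/KC no member was above its empty-droplet level in any cell type. Empty droplets, taken as uncalled barcodes with 1 to 50 UMIs, held the 9 genes at 2497 CPM together in library 1 and at 1789 CPM in library 2. In them S100a9 was at 1059 and 667 CPM, Ngp at 266 and 213 CPM and Ly6g at 6.58 and 1.53 CPM. Over all kept cells that were not G, each of the 9 genes lay below its empty-droplet level, at 2.33% to 13.1% of it in library 1 and 3.16% to 18.7% in library 2. A UMI of S100a9 was found in 15.4% of Eryb cells of library 1 and 9.40% of library 2 after thinning each cell to 3600 UMIs. Eryb, which are erythroblasts and should lack the gene, thus give the background share against which the share in any other type has to be read. The empty-droplet level is a high bar, since Eryb held S100a8 at only 5.55% and 3.96% of it and S100a9 at 4.29% and 4.15%. Mk held S100a8 at 15.1% and 12.2% of it and S100a9 at 8.21% and 14.8%, and Mo/KC held Lcn2 at 32.9% and 32.0%. A member below that level may thus still be expressed in a cell type, which was not tested.

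Mo/KC was the exception, and for the calprotectin pair alone at a high level. S100a8 had 4397 CPM in Mo/KC of library 1 and 5360 in library 2, and S100a9 had 2596 and 3860 CPM. Mmp8 had 35.4 and 18.1 CPM there, also above the empty droplets, while Ngp (10.3 and 3.39 CPM), Camp (8.84 and 7.91), Ltf (1.47 and 1.13) and Lcn2 (35.4 and 24.8) were below them. Mmp9 had 2.95 and 5.65 CPM on 2 and 5 UMIs, which could not be told apart from the empty droplets in either library. Ly6g had 0 UMIs in the Mo/KC cells of both libraries, which over both allows a level of up to 1.92 CPM. Within Mo/KC the pair followed the monocyte markers. The 74 cells with more UMIs of the monocyte markers Ly6c2, Ccr2, F13a1, Csf1r and Irf8 than of macrophage markers had S100a8 at 6438 CPM (6295 to 6583) and S100a9 at 4312 CPM. The macrophage markers were Fcgr1, Adgre1, C1qa, C1qb, Mrc1, Cd5l, Timd4 and Vcam1. The 40 cells with more UMIs of these had S100a8 at 16.5 CPM (6.04 to 35.8) and S100a9 at 19.2 CPM. The split is a rough one, since the study stains tissue macrophages for CSF1R, so Csf1r does not mark monocytes alone. Few cells carried the signal: 11 of 56 Mo/KC cells in library 1 and 19 of 58 in library 2 each had at least 20 UMIs of the 9 genes making at least 1% of the cell, and these held 89.0% and 96.3% of the members' UMIs in Mo/KC.

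The balance within the calprotectin pair differed between the clusters. S100a8 made 47.3% of the UMIs of the pair in G of library 1 and 40.9% in library 2, against 62.9% and 58.1% in Mo/KC. Taken per cell with at least 50 UMIs of the pair, the median share was 47.7% over 93 G cells and 71.1% over 15 Mo/KC cells in library 1. The medians in library 2 were 41.0% over 70 G cells and 57.5% over 21 Mo/KC cells. Cells of one liver are not replicates, and no test of this difference was made.

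Single cells of other clusters also stood out. One Ery cell of library 1 had 928 UMIs of the members among 23506, which was 41.0% of all member UMIs of the Ery cells of that library. In Mk, 2 cells of library 1 and 1 of library 2 passed the same limits, were led by S100a8 and S100a9, and had 0 UMIs of the platelet gene Pf4. These Mk cells held 69.2% and 56.0% of the members' UMIs in Mk of libraries 1 and 2. What these cells are was not tested.

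No member was found in every G cell. At least 1 UMI of S100a9 was in 118 of 157 G cells of library 1 and 91 of 130 of library 2, of Camp in 100 and 68, and of Ngp in 89 and 64. Ltf was in 83 and 50 cells, Ly6g in 42 and 20, Mmp8 in 52 and 20 and Mmp9 in 49 and 19. After thinning to 3600 UMIs per cell, the shares were 64.6% and 58.4% for S100a9, 65.3% and 59.4% for S100a8, 54.3% and 48.1% for Camp, 47.5% and 42.0% for Ngp and 20.8% and 9.43% for Ly6g. Cells with fewer than 3600 UMIs were left out. These shares thus rest on 136 of 157 G cells of library 1 and on all 130 of library 2. The Eryb background for Ngp under the same thinning was 6.42% and 2.84%. A G cell without a UMI of Ly6g is thus common at this depth, and the share limits cells with a captured molecule, not cells that express the gene.

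The spread among single G cells was wide, and it ran from cells with none of these transcripts to cells in which they made up a large part of the mRNA. The 9 genes made up to 34.4% of the UMIs of a cell in library 1 and up to 35.6% in library 2, while 17 and 21 G cells had no UMI of any of them. The largest class lay at the low end: 60 G cells of library 1 and 59 of library 2 had under 0.1% of their UMIs in these genes. At least 20% was reached by 56 and 23 cells. Between 0.1% and 1% there were 9 and 4 cells, from 1% to 5% 8 and 16, from 5% to 10% 6 and 13, and from 10% to 20% 18 and 15. These classes are of unequal width, and in library 2 more cells lay from 0.1% to 20% than above. Depth moved with this share. The median was 18275.5 UMIs in the cells under 0.1% and 4960.5 in the cells over 20% in library 1, and 19359 and 8063 in library 2. Less RNA in the cells with a high share and a change in the mRNA make-up both enter a share of UMIs. They cannot be told apart here.

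Gene by gene, the middle of the distribution was low and the upper end high. S100a9 ranged from 0 to 132690 CPM over the G cells of library 1 with a median of 29827 CPM, and from 0 to 143681 CPM with a median of 9004 CPM in library 2. Ngp ranged from 0 to 88481 CPM with a median of 104 CPM in library 1, and from 0 to 81203 CPM with a median of 0 in library 2. Camp had a median of 2481 CPM and a highest value of 58033 CPM in library 1, against 54.3 and 47215 CPM in library 2. For Ltf the medians were 95.8 and 0 CPM, with highest cells at 29306 and 23350.5 CPM. The median cell was thus near the bottom of the range for the granule proteins, and less so for the calprotectin pair.

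The concentration of the UMIs in a few cells followed the same split. The 10% of G cells with the most UMIs of a gene, 16 cells in library 1 and 13 in library 2, held 29.1% and 33.6% of the UMIs of S100a9, and 30.4% and 35.6% of those of S100a8. They held 42.1% and 44.0% of the UMIs of Camp, 40.7% and 55.3% of Ngp and 41.1% and 55.5% of Ltf. For Ly6g the shares were 65.2% and 86%, for Mmp8 53.2% and 89.4% and for Mmp9 61.1% and 84.7%, where the highest cell had 9 and 10 UMIs of Ly6g. The variance over the mean after thinning, which is 1 for counting error alone, was 144 and 169 for S100a9, 120 and 138 for Ngp and 3.51 and 4.05 for Ly6g. This measure rises with the level of a gene and does not rank the genes by spread. The standard deviation of CPM over its mean ran the other way. It was 1.04 and 1.29 for S100a9, 1.27 and 1.84 for Ngp and 2.20 and 4.10 for Ly6g. For Ly6g, Mmp8 and Mmp9 much of the concentration can come with their low counts, a part that was not tested.

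**Figure D2:**
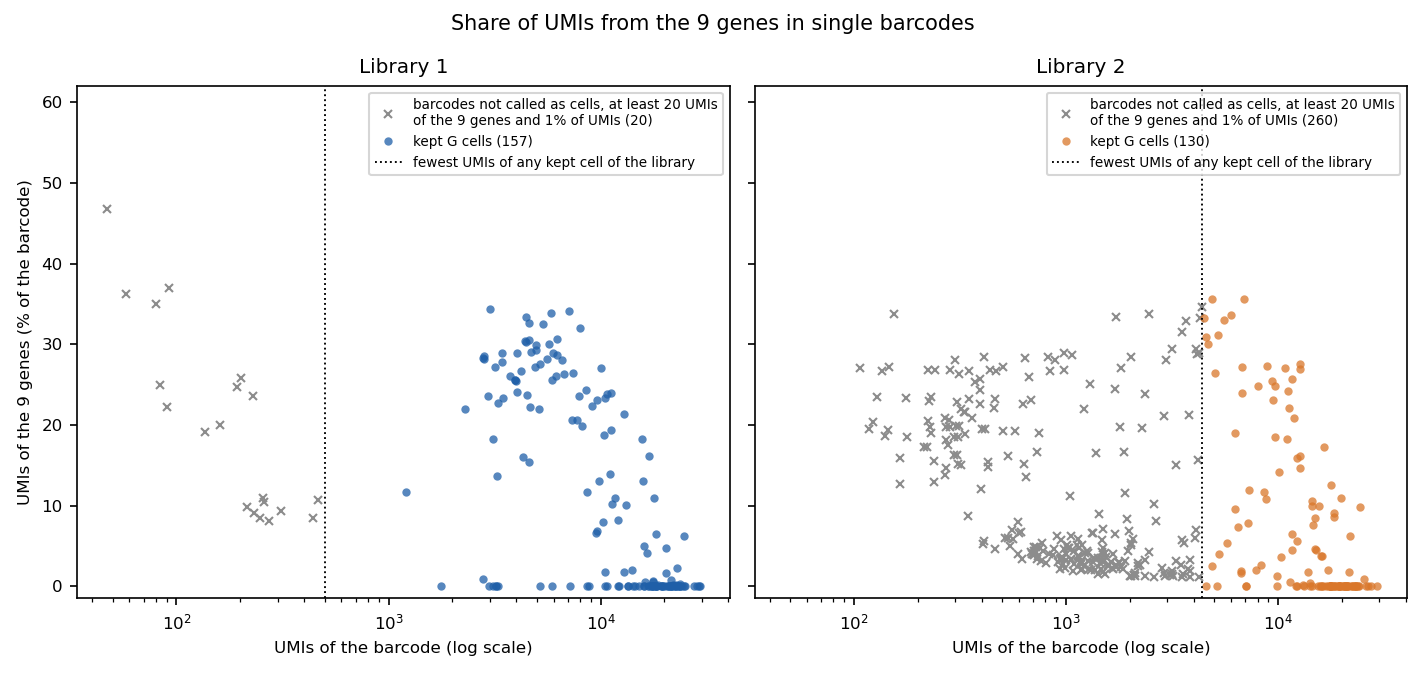
UMIs of the 9 genes as a percent of all UMIs of each G cell (vertical axis) against the UMIs of the cell (log axis), one point per cell, for both libraries. Cells under 0.1% had a median of 18275.5 UMIs in library 1 and 19359 in library 2, and cells over 20% had 4960.5 and 8063.

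The G cells held cells with primary granule transcripts and cells with member transcripts side by side. Some had both kinds at 1% of UMIs or more. Cells with at least 1% of UMIs in the members and under 1% in the primary granule genes numbered 77 in library 1 and 49 in library 2. Cells with at least 1% in both numbered 11 and 18, and cells with the primary granule genes alone at that share numbered 24 and 14. The other 45 and 49 G cells were under 1% for both, with a median of 0.509% and 0.501% of UMIs in the primary granule genes. In these last cells markers of mast cells and basophils (Cpa3, Ms4a2, Gata2, Mcpt8 and Cma1) made 0.0552% and 0.0333% of UMIs.

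To follow the order of appearance, the G cells of each library were lined up without use of any member and divided into 5 groups. The line set the UMIs of 15 genes listed as other late neutrophil genes, such as Cebpe, Fcnb, Retnlg and Csf3r, against those of the 4 primary granule genes. Not all of the 15 were late here. Fcnb was at 2025 CPM in the third group of library 1 and at 400 and 840 CPM after it, and Csf3r was above the empty-droplet level in HSPCs of both libraries. The summed level of the primary granule genes went through 8199.9, 15589, 6088, 44.5 and 0 CPM from the first to the last group in library 1, and through 8740.0, 7812, 14716, 5772 and 21.1 CPM in library 2. The line therefore ran later in library 1 than in library 2 for the same group number. A cell without a primary granule UMI was placed by its count of late UMIs alone, a count that also rises with depth. All cells of the last group of library 1 were of this kind. The part of depth in their order was not tested.

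S100a9 and S100a8 were among the first to come up. S100a9 was at 47.2, 3245, 31047, 76419 and 70719.5 CPM over the 5 groups of library 1 and at 135, 214, 11823, 49891 and 71223 CPM in library 2. S100a8 was at 43.9, 3275, 27539, 66369.8 and 64639 CPM in library 1 and at 218, 333, 6933, 33967 and 51396 CPM in library 2. Both were thus well up in the group in which the primary granule genes were still present.

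Camp was the granule gene with the earliest mean position in both libraries. It was at 9.77, 613, 15291, 28433 and 32230.3 CPM in library 1 and at 2.29, 5.74, 3004, 19727 and 29160.4 CPM in library 2. Ngp was at 8.14, 611, 8045, 46627 and 49470 CPM in library 1 and at 4.59, 5.74, 143, 12858 and 38182 CPM in library 2. In the third group of library 2, Camp had thus reached 10.3% of its highest group and Ngp 0.374%. Lcn2 was at 1.63, 164, 4015, 14871 and 16029 CPM in library 1 and at 2.29, 3.82, 167, 6337 and 12281 CPM in library 2.

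Ltf, Mmp8, Mmp9 and Ly6g stayed at or under 11.7% of their highest group through the third group of both libraries. Ltf was at 4.88, 27.6, 1765, 12851 and 15026 CPM in library 1 and at 4.59, 1.91, 2.46, 2124 and 8945 CPM in library 2. Ly6g had 0, 6 and 4 UMIs in the first 3 groups of library 1 and was at 343 and 392 CPM in the others, and in library 2 it had no UMI in the first 3 groups, 13.6 CPM in the fourth and 194 CPM in the fifth. Mmp9 was at 0, 0, 9.75, 559 and 636 CPM in library 1, and likewise had no UMI in the first 3 groups of library 2, with 51.1 and 186 CPM after them. Mmp8 was at 91.0, 1239 and 1277 CPM in the last 3 groups of library 1 and at 0, 54.5 and 448 CPM in library 2. The first 3 groups held 614399, 615484 and 307633 UMIs in library 1, and the last 2 held 157421 and 196523. In library 2 they held 436040, 523050 and 406484, and the last 2 held 293818 and 236554. Low counts make the levels of Ly6g, Mmp8 and Mmp9 in single groups uncertain, and the part of this in their place was not tested.

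**Figure D3:**
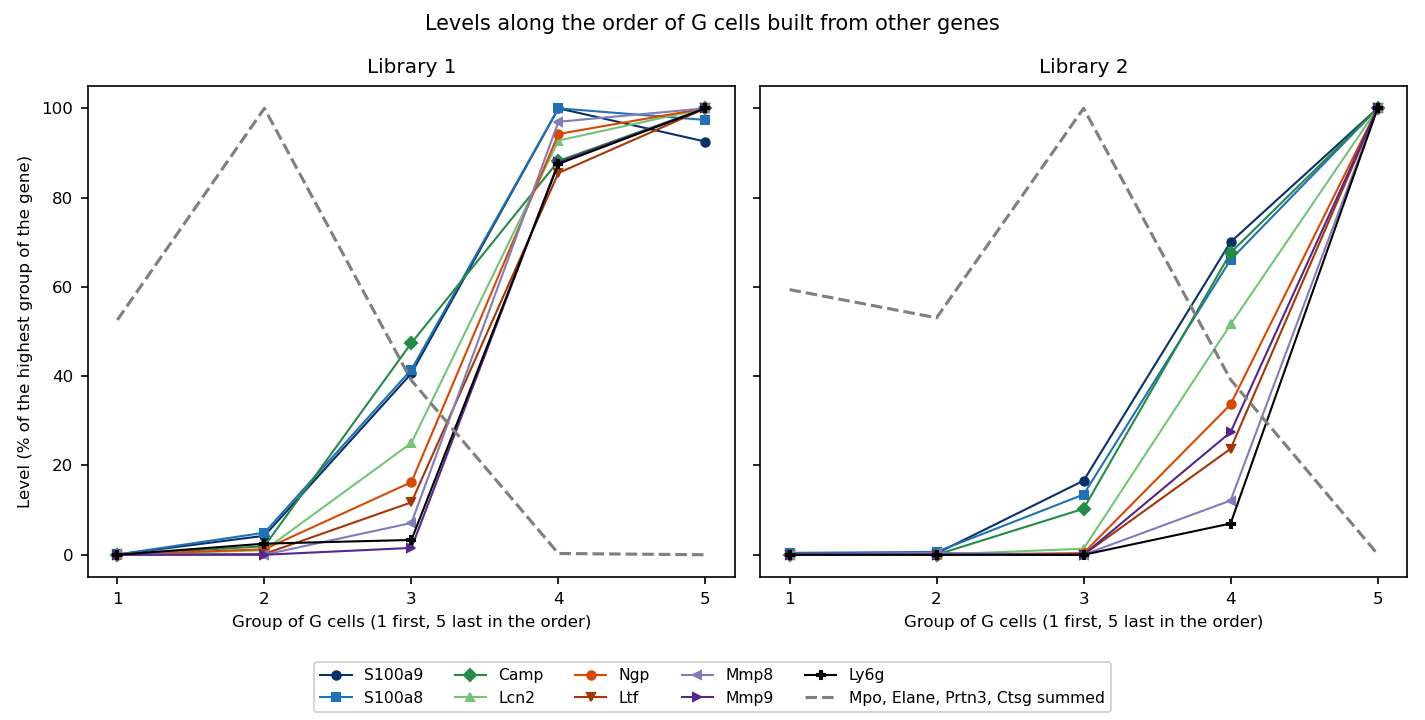
Level of each member in 5 groups of G cells, from the first to the last of the line, for both libraries. Values are percent of the highest group, with the 4 primary granule genes beside. S100a9, S100a8 and Camp reached 10% of their highest group in the third group of both libraries. Lcn2, Ngp and Ltf did so in the third group of library 1 and the fourth of library 2. Ly6g did so in the fourth group of library 1 and the fifth of library 2.

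The mean position of a gene along the line, from 0 for the first cell to 100 for the last and weighted by the CPM of each cell gave each gene 1 value per library. The primary granule genes lay at 21.2 (Ctsg) to 33.9 (Elane) in library 1 and at 27.8 to 44.2 in library 2. They set the early end of the line, so their early places were given by its making. Cebpe, the C/EBP factor of the later granule stages and itself one of the 15 genes of the line, lay at 64.8 and 69.4. Among the members, S100a9 lay at 74.6 and 79.9, S100a8 at 74.7 and 80.5, and Camp at 75.1 and 81.4. Lcn2 lay at 77.7 and 84.5, Ngp at 78.1 and 86.4, and Ltf at 79.7 and 86.9. Mmp8 was at 80.0 and 85.7, Mmp9 at 81.7 and 85.6, and Ly6g at 79.3 and 88.7. S100a9, S100a8, Camp and Lcn2 took the first 4 places in both libraries, a set named after its values were seen. The mean position is a centre of the level along the line and not the place where a gene first appears. By the first group at 10% of the highest group, these genes were level with Ngp and Ltf in the third group of library 1. In library 2 Lcn2 reached it in the fourth group, as did Ngp, Ltf, Mmp8 and Mmp9. Within that set the order changed with the way the cells were lined up: by the first principal component or by the ribosomal share Camp, and not S100a9, took the first place in library 1. Ngp lay shortly before Ltf in both libraries, and in 10 of 10 other orders of the same cells, which are not independent. The full order of Ngp, Ltf, Mmp8, Mmp9 and Ly6g was not the same in the libraries and was not settled here.

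Pairs of genes were also compared without any line, by the cells that had one of them and not the other. In library 2, 60 G cells had Camp at 1000 CPM or more and 48 had Ngp, of which 46 had both, 14 had Camp only and 2 had Ngp only. In library 1, 82 had Camp and 76 had Ngp, with 74 having both, 8 Camp only and 2 Ngp only. Against Ltf, 20 cells had Camp only and 0 had Ltf only in library 2, and 11 and 2 did in library 1. Lcn2 and Ngp gave no order in library 2, with 6 cells with Lcn2 only and 5 with Ngp only, against 5 and 1 in library 1. Every G cell of either library with Camp, Ngp, Ltf or Lcn2 at 1000 CPM or more also had S100a8 and S100a9 at that level. All 62 G cells with a UMI of Ly6g had Ngp, S100a8, S100a9 and Lcn2, and 61 had Camp and 60 had Ltf. A pair with unequal levels gives cells with only the higher gene for that reason as well, and its part in these counts was not tested.

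Other features of the cells moved along the same line. The median depth went through 19025, 20037.5, 10304, 4455 and 5934 UMIs over the groups of library 1 and through 17692.5, 20487, 16574, 11447.5 and 7685.5 in library 2. Ribosomal protein genes went from 254045 CPM in the first group to 67122 in the last in library 1, and from 275849 to 86323 in library 2. Adult globin transcripts, which G cells do not make, were at 6916 CPM in the first group and 55088 in the fourth of library 1, but at 8599.5 in the fifth, and went from 15978 to 125887 CPM over library 2. Markers of mast cells and basophils were at 378 CPM in the first group and 0 in the last of library 1, and at 229 and 4.23 CPM in library 2. The part of these features in the order of the members was not tested. Of 6730 genes with enough counts, 250 (3.71%) were at least 5-fold higher in the last than in the first group in both libraries. The 9 members were among them. The groups were made from other late neutrophil genes, chosen with earlier results known, and nothing more is read from that count.

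The libraries differed most in the members that came up last. Over all G cells the ratio of library 1 to library 2 was 1.03 (1.02 to 1.05) for S100a9 and 1.14 for Camp, and 1.34, 1.41 and 1.55 for S100a8, Lcn2 and Ngp. It was 2.02 for Ltf, 2.83 (2.03 to 3.99) for Ly6g, 3.67 (2.74 to 4.98) for Mmp9 and 3.88 (3.18 to 4.77) for Mmp8. The 4 members with ratios over 2 were thus among the 5 with the latest mean positions in each library. With the minimum of library 2, 4387 UMIs, set on both libraries, 128 and 130 G cells stayed and the ratios were 0.908 for S100a9, 1.08 for Camp, 1.40 for Ngp, 1.78 for Ltf, 1.96 for Ly6g, 2.41 for Mmp9 and 2.79 for Mmp8. The 29 G cells of library 1 below that minimum had the 9 genes at 193617 CPM together, with Mmp8 at 1614, Mmp9 at 866 and Ly6g at 513 CPM. Of these shallow cells 18 had over 20% of their UMIs in the members and 7 under 1%, against 38 and 62 of the 128 deeper ones. The low-UMI G cells that only library 1 kept thus more often had a high share of these transcripts, and for Ltf, Ly6g, Mmp8 and Mmp9 part of the ratio remained without them, while that of S100a9 turned below 1. The matrices of library 1 name software version 3.0.0 and those of library 2 name none, and the part of the software in the difference was not tested.

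**Figure D4:**
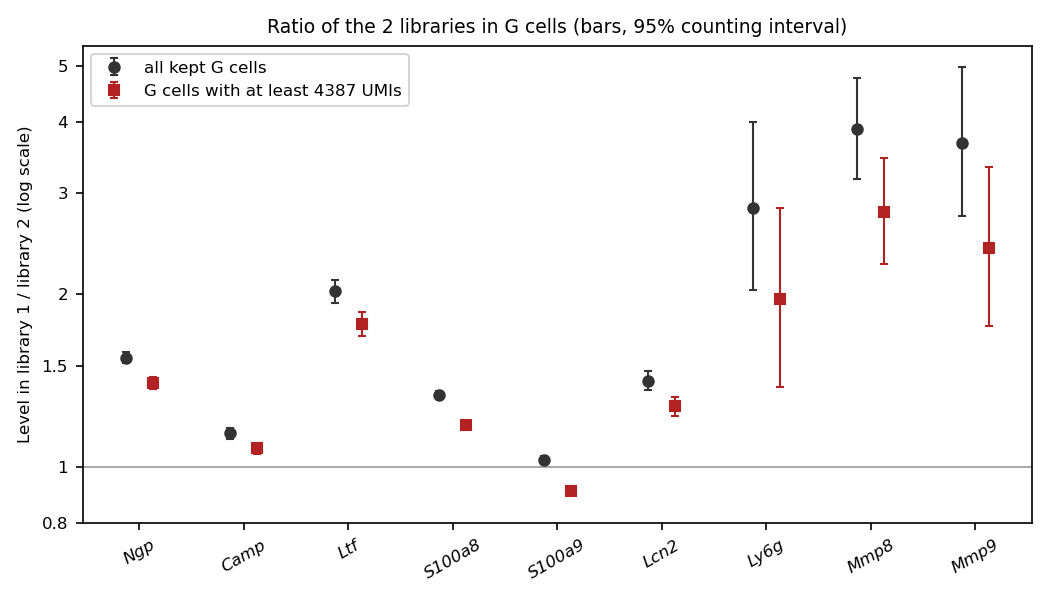
Ratio of CPM in G between library 1 and library 2 on a log axis, with 95% counting intervals, for all kept G cells and for G cells above a common minimum of 4387 UMIs. With the common minimum Mmp8 went from 3.88 to 2.79 and S100a9 from 1.03 to 0.908.

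Among the other genes of the same setting, the factors of the granulocyte lineage were present in G in both libraries. All 6 measured factors were above the empty-droplet level, with Spi1 (PU.1) at 571 and 513 CPM, Cebpe at 563 and 485, Cebpa at 58.2 and 62.2 and Gfi1 at 27.0 and 30.1 CPM, and Cebpd was not analysed here. Of the 15 other late genes, 12 were above that level in both libraries. The receptors and inhibitors of the member proteins were mostly not: 1 of 8 in library 1 and 2 of 8 in library 2 were above it, with the formyl peptide receptor Fpr2 at 38.1 and 25.3 CPM. Slc22a17, a receptor for Lcn2, had 3.70 and 1.58 CPM in G, and Timp1, an inhibitor of Mmp9, had 0 UMIs in G of both libraries. None of the 6 other matrix metalloproteinases looked at passed in G, where Mmp8 and Mmp9 did, and the rest of the family was not looked at. Of 6 S100 relatives 3 passed in library 1 and 5 in library 2, led by S100a11 at 796 and 658 CPM, and of 6 Ly6 relatives 2 passed in both, Ly6e and Ly6c2.

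The members of high level followed each other from cell to cell. On the log scale, Pearson's r between pairs of the 6 members of high level ran from 0.867 (Ltf with S100a8) to 0.980 (S100a8 with S100a9) over 157 G cells of library 1, and from 0.735 (Ltf with S100a9) to 0.986 over 130 cells of library 2. Pairs with Ly6g, Mmp8 or Mmp9, which had few UMIs, were lower, down to 0.515 (Camp with Ly6g) in library 1 and 0.404 (S100a9 with Ly6g) in library 2. The genes outside the list whose level was most like the summed level of the members were BC100530 (r of 0.981 in library 1 and 0.977 in library 2), Gm5483 (0.980 and 0.961), Pglyrp1 (0.950 and 0.965), Stfa1 (0.937 and 0.957), Stfa3 (0.949 and 0.898) and Anxa1 (0.927 and 0.923). BC100530, Gm5483, Stfa1 and Stfa3 are stefin A genes, near-identical copies between which the counting could split reads, so the level of each is uncertain. Pglyrp1, a secondary granule protein that binds peptidoglycan, was also one of the 15 late genes of the line. All of these values share the depth and maturity of the cells and describe them only.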

How the data were processed

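Per the methods, cells of 1 fetal liver were loaded as 2 technical replicate libraries, and the submitters' processing notes name Cell Ranger 2.1.1, Seurat 3.2.0 and bcl2fastq 2, with mm10 and a GRCm38 annotation, while the matrix headers of library 1 name software version 3.0.0. The authors deposited raw UMI counts per gene and barcode, for all barcodes and for called cells, with a list that gives each kept cell its cluster and type. Cells were those of that table, and no cell or doublet was removed further.

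From the deposited counts, UMIs were summed per cell type and library and divided by all UMIs of the group (CPM), with exact 95% Poisson intervals. Counting error is all that these intervals cover. Detection in a cell type is the mean share of its cells with a UMI over all ways to thin a cell to 3600 UMIs. Wherever cells were thinned, those with fewer UMIs than that were left out. Where a count was 0, the limit is 3 UMIs. G cells were ordered by (late + 1) / (late + early + 2), with the UMIs of 15 late and 4 primary granule genes. A correlation across single cells is over log2 of UMIs per 10000 UMIs of the cell, with a pseudocount of 1. Genes entered a count of folds at 10 CPM or more in either group of each library. As libraries are technical and cells are not replicates, no test between samples was made. Gene names came from the deposited feature tables, positions from the GENCODE vM21 annotation and promoters from RefSeq. All 9 genes are named, and the members and the lists were chosen with earlier results of these data known. The computations used Python 3.11.15, numpy 2.4.6, pandas 2.3.3 and scipy 1.17.1, and were tested on simulated data.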

Additional observations from a re-analysis of the deposited data

Results flagged for a closer look

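Outside the kept cells there were barcodes rich in the 9 transcripts, more of them in library 2. A barcode was counted where at least 20 UMIs of the members made at least 1% of its UMIs. That limit lies above the empty-droplet level, so a high level of the members in these barcodes follows from the choice. Library 1 had 20 such barcodes, with 47 to 465 UMIs and a median of 208. Library 2 had 260, with 107 to 4363 UMIs and a median of 1035.5, beside 67 kept G cells that met the same limits. Of these 260, 134 had at least 1000 UMIs. In library 1 no such barcode with over 1000 UMIs was uncalled, and 29 kept G cells had fewer than 4387 UMIs, 22 of them rich.

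In library 2 the barcodes outside the kept cells with over 500 UMIs held 21.6% of all UMIs of the 9 genes and the kept G cells 64.1%, against 0.0577% and 86.7% in library 1. The 145 barcodes of library 2 with at least 5% of their UMIs in the members had these at 185884 CPM together, Mmp8 at 945 CPM, Mmp9 at 507 CPM and Ly6g at 298 CPM. The 51 kept G cells of that library that met the same limit had 164570, 213, 87.5 and 85.6 CPM for the same quantities. The primary granule genes were at 552 CPM in those 145 barcodes and the adult globins at 114286 CPM. The other 115 barcodes had the members at 26309 CPM and globins at 419286 CPM. Whether these barcodes are cells was not tested.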

How the results depend on the processing

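For levels, shares and mean positions, the limit for a like value was the standard deviation of the 2 libraries. Alternatives that leave out 1 library give the values behind that deviation, so they stay within it almost by construction. Of 58 alternatives for the summary values, 43 stayed within the limits set for a like value and 15 moved, and of 270 for single genes 211 stayed, 57 moved and 2 turned direction. Those 2 were the ratio of library 1 to library 2 for S100a9, 1.03 over all cells, 0.908 with a common UMI minimum and 0.988 with at least 1000 genes and under 10% mitochondrial UMIs. For the members together, the ratio was 1.12 and 1.2 in those settings. With each cell given equal weight, the summed level in G was 99152 CPM in place of 57163 and its ratio between libraries 1.52 in place of 1.25. Ranked by CPM, the top 10% of G cells held 21.2% of member UMIs in place of 34.3%. Without its richest cell, Mk was at 140 CPM in place of 197. Genes called higher in G than in HSPCs numbered 196 (2.73%) at 5-fold, in place of 125 of 7187 (1.74%) at 10-fold. With a 50 CPM minimum they were 63 of 2862 (2.2%), and 7 of the 9 members were tested. Genes called higher in the last than in the first group numbered 113 (1.68%) at 10-fold and 61 (0.906%) at 20-fold, in place of 250 of 6730 (3.71%) at 5-fold. With a 50 CPM minimum they were 157 of 2887 (5.44%). These alternatives for the last over the first group were chosen after seeing the data. Uncalled rich barcodes were 67 (10 UMIs) and 3 (50 UMIs) in library 1, and 145 (5% of UMIs) and 135 (50 UMIs) in library 2. The cause of each change was not tested.

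By mean position, S100a9, S100a8, Camp and Lcn2 took the first 4 places in 10 of 10 other orders of the same cells. These orders are not independent, and Camp stood first in 2 of them. The order of library 2 under the common UMI minimum could not differ, since every kept cell there passes it. The orders from 10 groups in place of single cells divide the same line. No paired analysis was possible because the only group was compared with no other. With 1 liver there is no spread between embryos, and Ly6g, Mmp8 and Mmp9 are limited by their few UMIs.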

Other observations

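The empty droplets of the libraries differed in some genes that are not members, while for others, such as Fcnb and Cebpe, the ratio was 1.05 and 1.03. S100a6 had 1425 UMIs (722 CPM) in the empty droplets of library 1 and 17 UMIs (8.67 CPM) in library 2, while the highest kept cell type of library 1, G, had 92.0 CPM. Retnlg, a resistin-like gene of neutrophils, had 133 and 8.16 CPM in empty droplets and 556 and 112 CPM in G. S100a4 had 32.9 and 1.53 CPM and C1qa 46.6 and 5.10 CPM in empty droplets. Among the members the ratio of empty droplets between libraries was 5.46 for Mmp9 and 4.22 for Mmp8, and Ly6g had 6.58 CPM against 1.53. The source of these transcripts was not tested.

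Chil3, a chitinase-like protein of mouse myeloid cells, had 0 UMIs in G of library 1 and 48 UMIs (25.3 CPM) in library 2. Of the other neutrophil genes listed, Mmp25, which encodes a membrane-bound protease, had 2 UMIs in G of library 1 and 0 in library 2. The genes most opposed to the members from cell to cell within G were Slc25a4, Calr, Srm, Mif and Npm1, which serve energy use, protein folding and growth.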
